A study of Caenorhabditis elegans with 2 samples.

Results

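The cytosolic ribosomal protein genes of Caenorhabditis elegans were examined for regions bound by LSY-27. The members were the protein-coding genes of the RefSeq annotation of build WBcel235 whose names start with rpl- or rps- and a digit, together with the acidic stalk protein genes rla-0, rla-1 and rla-2, which RefSeq lists as rplp-0, rplp-1 and rplp-2.2. This rule gave 81 of 19983 protein-coding genes, of which 51 belong to the large subunit and 30 to the small subunit. The rule goes by name and uses no measured value. The product of rpl-42 is listed as a NAM-associated domain-containing protein, and the gene was kept because the rule goes by name. The product of rps-10 is listed by its eS10 N-terminal domain, and that of rps-27A, also known as ubl-1, as a ubiquitin-like protein. The names used here are those of RefSeq. Worm databases also know rps-3A as rps-1, rpl-18A as rpl-20, rpl-37A as rpl-43, rps-15A as rps-22 and rpl-10L as rpl-10.

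Ribosomal proteins coat the ribosomal RNAs of the large and the small subunit. The large subunit joins amino acids and leads the new chain through its exit tunnel, and the small subunit reads the messenger RNA. The subunits need their proteins in matched amounts, and in animals these genes are among the most actively transcribed in nearly every cell. Many worm messenger RNAs, those of ribosomal proteins included, receive a spliced leader at their 5′ end by trans-splicing, so that the annotated 5′ end of a gene is often the splice acceptor and transcription starts upstream of it. Several ribosomal protein genes also carry small nucleolar RNA (snoRNA) genes in their introns.

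The measurements came from chromatin immunoprecipitation with sequencing (ChIP-seq) of whole young adult hermaphrodites of strain OP401, which carries a transgene for LSY-27 with a C-terminal GFP-FLAG tag. LSY-27 is a C2H2 zinc finger transcription factor known for making the left and right ASE taste neurons differ. The precipitation used an antibody against GFP, and there were 1 group and 2 biological replicates, numbered 2 and 3, with no contrasting strain, stage or treatment. The control library was not analysed here, age is labelled unknown, and the promoter that drives the transgene and the number of integrated lines are not given in the sources used here. Because whole animals were used, binding in a few cells and weak binding in many cells cannot be told apart, and none of the values belongs to a named tissue. The comparisons below set ribosomal protein genes beside all protein-coding genes of the same libraries.

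Each gene was given the strongest region with a summit in a window that began 1000 bp upstream of its annotated 5′ end and ended 200 bp into the gene. The choice was made in each list apart, so the regions of a gene can differ between lists. Signal is the authors' score of a region. No source used here gives its scaling, and it was compared within a list only. The deposited lists on build ce11, the UCSC name of WBcel235, were a thresholded list of 342 regions and 3 relaxed lists. The thresholded list came from the authors' test of reproducibility between replicates. The relaxed lists by their description hold regions together with background. The relaxed lists held 30000 regions for the pooled replicates, 12414 for replicate 2 and 29326 for replicate 3. The thresholded regions were exactly the 342 pooled regions with the highest signal, the lowest of them at 22.1. Read depth is unknown, since the lists hold no counts, and membership of a relaxed list alone is therefore not a call of binding.

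The sequences around the strongest summits held words that recurred at some of the ribosomal protein genes. The following are the 101 bases centred on pooled summits, on build ce11, each 5′ to 3′ on the strand of the gene. They are shown because they include the strongest member, thresholded members with and without the words marked here, and members below the threshold that hold marked words. Capitals mark the word GGTCTC, whose reverse complement is GAGACC, the word ACCGTA, whose reverse complement is TACGGT, and the word CCTAAA, whose reverse complement is TTTAGG, found by search on both strands.
rpl-35, chrIII:7854630-7854730, plus strand: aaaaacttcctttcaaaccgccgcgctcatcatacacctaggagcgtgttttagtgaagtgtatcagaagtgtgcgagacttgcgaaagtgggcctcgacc
rpl-15, chrIV:654852-654952, minus strand: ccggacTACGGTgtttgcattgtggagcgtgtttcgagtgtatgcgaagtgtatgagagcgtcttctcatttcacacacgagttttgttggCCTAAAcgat
rpl-38, chrV:15511734-15511834, plus strand: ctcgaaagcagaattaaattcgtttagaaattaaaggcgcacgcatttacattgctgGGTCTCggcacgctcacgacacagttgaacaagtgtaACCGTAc
rps-11, chrIV:11602289-11602389, plus strand: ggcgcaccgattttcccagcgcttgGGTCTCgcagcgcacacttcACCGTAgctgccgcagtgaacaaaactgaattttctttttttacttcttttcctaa
rpl-6, chrIII:7208026-7208126, plus strand: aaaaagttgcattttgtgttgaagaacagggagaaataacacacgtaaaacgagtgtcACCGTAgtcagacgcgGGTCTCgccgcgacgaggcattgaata
rpl-26, chrII:8602508-8602608, plus strand: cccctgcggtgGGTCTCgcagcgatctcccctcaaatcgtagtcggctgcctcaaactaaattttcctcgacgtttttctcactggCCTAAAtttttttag
rpl-29, chrIV:13881900-13882000, plus strand: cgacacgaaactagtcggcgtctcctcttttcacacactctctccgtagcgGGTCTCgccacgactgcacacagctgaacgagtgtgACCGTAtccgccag
rpl-36, chrIII:7179853-7179953, plus strand: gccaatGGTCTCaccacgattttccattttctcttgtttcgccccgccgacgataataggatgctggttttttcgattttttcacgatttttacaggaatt
rpl-38, rps-11 and rpl-6 held both GGTCTC and ACCGTA within their windows, and so did rpl-29, which was below the threshold. The window of rpl-35, the member with the highest signal, held none of the marked words. It did hold GCGAGA and CGAGAC, frequent words that are not marked here and are named further below. The last window is also the upstream region of rps-14, which starts on the other strand.

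The sequence before the annotated 5′ ends is shown next. The following are the 20 bases before and the first 10 bases after the annotated 5′ end of 5 thresholded members, with the last 6 bases before it in capitals, on build ce11 and on the strand of the gene. They show that the annotated ends sit at splice acceptor sequence, with rpl-12 as the exception.
rps-28, chrIV:1659671-1659700, plus strand: ataatttcaatttcTTTCAGgtaatcagtc
rpl-15, chrIV:654567-654596, minus strand: tctaaccttttttcTTTCAGaaaacatggg
rpl-35, chrIII:7855114-7855143, plus strand: taagcaatctcattATTCAGggttaccaca
rps-11, chrIV:11602621-11602650, plus strand: attcaaatgtttttTTGCAGaacctgggaa
rpl-12, chrIV:13240642-13240671, minus strand: agcgacgcaacaacCATTGTgatacggagt
TTTCAG stood directly before the 5′ end of 45 of 81 ribosomal protein genes (55.6%), against 13.4% of all protein-coding genes. The next most frequent word was TTGCAG, at 12 members (14.8%), against 2.24% of all nuclear protein-coding genes. AG ended the upstream sequence of 74 members (91.4%), against 30.0% of all. The coding sequence began a median of 9 bp after the 5′ end in members, against 14 bp in the other genes.

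A summit of the thresholded list lay in the window of 18 of 81 ribosomal protein genes, 22.2% with an exact 95% interval of 13.7 to 32.8%. The share over all protein-coding genes was 1.13%, or 226 of 19983. The interval covers counting error only, and members that share a summit are not independent. From replicate 2 alone the same number of strongest regions gave 10 members, and from replicate 3 alone 16. With the window cut to 200 bp upstream, 4 members had a thresholded summit. In the pooled relaxed list 78 members (96.3%) had a region, against 41.5% of all protein-coding genes. When each summit counted for the nearest protein-coding 5′ end alone, 58 members had one. The median signal of the 78 was 11.8, with an interquartile range of 9.11 to 20.7 and a range of 3.56 to 41.2. The other genes with a region had a median of 5.76. The median rank of the members' regions was 1667 of 30000, against 10268 for the other genes.

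**Figure D1:**
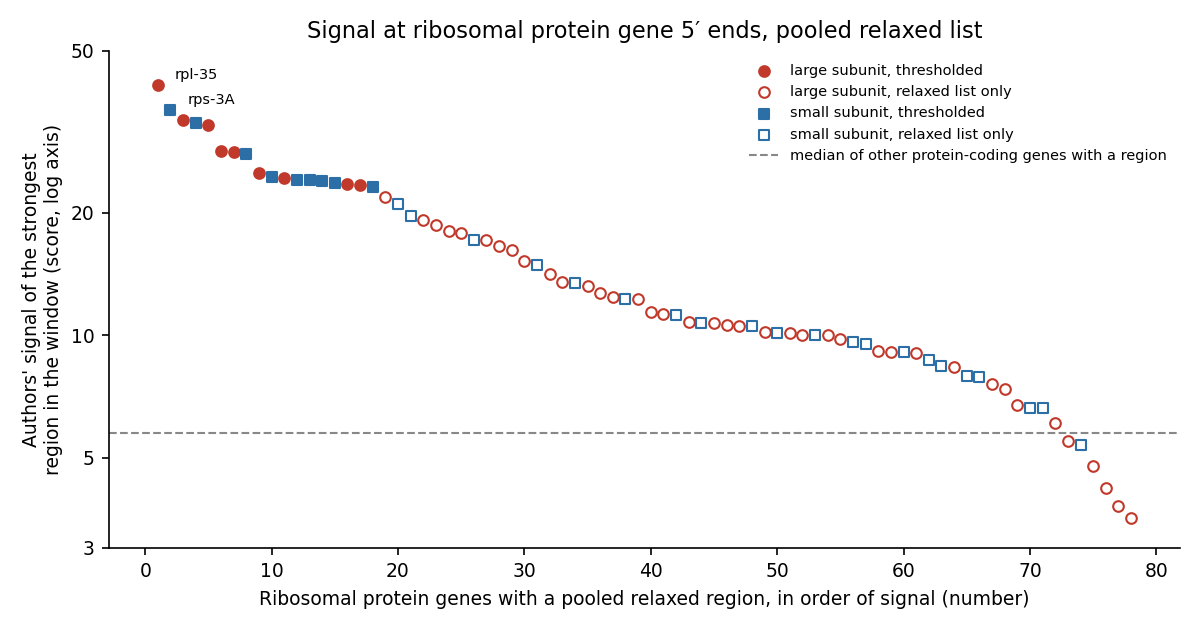
Authors' signal (score, log axis) of the strongest pooled relaxed region of each of the 78 ribosomal protein genes that had one, in order of signal, with circles for the large subunit, squares for the small subunit and filled symbols for thresholded summits. Signal ran from 41.2 at rpl-35 to 3.56 at rpl-41.1, and the dashed line is the median of the other genes, 5.76.

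The members made up a larger share of the genes in the upper ranks of the pooled list than towards its end. Among ranks 1 to 342, which are the thresholded regions, 18 of the 226 genes reached were ribosomal protein genes (7.96%). Ranks 343 to 1000 held the strongest region of a further 13 members (16.0%), against 2.35% of all protein-coding genes, and ranks 1001 to 3000 that of 26 (32.1%), against 5.82%. Another 15 members (18.5%) had theirs in ranks 3001 to 10000, against 11.3% of all. Ranks 10001 to 30000 held 6 (7.41%), against 20.9%. Members made up 2.77%, 2.23%, 0.665% and 0.143% of the genes reached in these 4 ranges, in this order.

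Large and small subunit genes had the same median signal, 11.8 each. Of the large subunit genes 9 of 51 had a thresholded summit (17.6%, exact 95% interval 8.40 to 30.9%), and of the small subunit genes 9 of 30 (30.0%, 14.7 to 49.4%). These intervals cover counting error only, and the genes are not replicates of a condition. A difference between the subunits was not tested. From replicate 2 alone the counts were 6 large and 4 small subunit genes, and from replicate 3 alone 8 and 8. A pooled relaxed region was found at 48 of 51 large subunit genes (94.1%) and at all 30 small subunit genes. The median rank was 1667 for the large and 1700 for the small subunit.

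**Figure D2:**
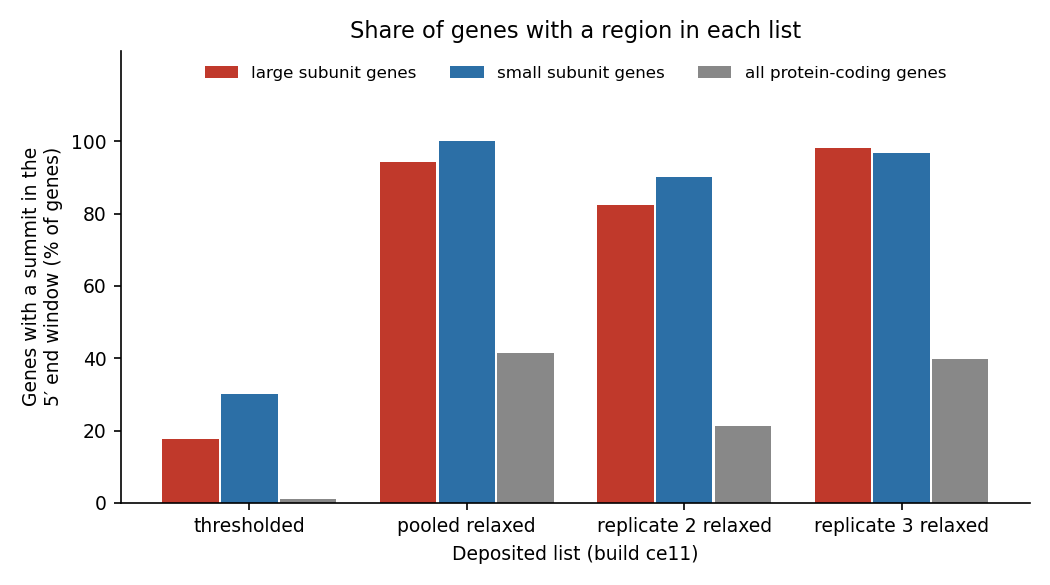
Share of large subunit genes (n = 51), small subunit genes (n = 30) and all protein-coding genes (n = 19983) with a summit in the window around the 5′ end (%), in the thresholded list and the 3 relaxed lists on build ce11. Both subunits stand above all protein-coding genes in each list, at 17.6% and 30.0% against 1.13% in the thresholded list.

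Among the large subunit genes with a thresholded summit, those whose proteins lie near the exit tunnel and the catalytic centre included the strongest member. rpl-35 encodes uL29, which sits beside the opening of the exit tunnel, and its region at chrIII:7854522-7854837 had a pooled signal of 41.2, with 10.7 in replicate 2 and 28.4 in replicate 3. rpl-31 encodes eL31, another protein at the tunnel opening, and its region at chrI:13653828-13654143 had a pooled signal of 24.4, with 6.82 in replicate 2 and 15.4 in replicate 3. rpl-3 encodes uL3, which reaches towards the peptidyl transferase centre, and its region had a pooled signal of 28.4, with 5.17 in replicate 2 and 23.1 in replicate 3. Replicate 3 gave the higher score at each of these 3 genes, as at 17 of the 18 thresholded members, but the scales of the replicate lists are not known to be common. Within their lists, rpl-35 ranked 153 in replicate 2 and 52 in replicate 3, rpl-31 ranked 744 and 318, and rpl-3 ranked 1686 and 99.

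A pair of genes encodes proteins at the factor-binding side and the subunit interface. rpl-12 encodes uL11, at the base of the stalk where translation factors dock. Its region at chrIV:13240509-13240824 had a pooled signal of 23.5, with 9.72 in replicate 2 and 14.6 in replicate 3. rpl-23 encodes uL14, which faces the small subunit and in yeast is where the assembly factor eIF6 binds. Its region at chrIII:5706299-5706614 had a pooled signal of 28.2, with 13.3 in replicate 2 and 14.7 in replicate 3. rpl-23 was among the strongest thresholded members in replicate 2, with rank 72.

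The remaining large subunit members with a thresholded summit were rpl-18A, rpl-15, rpl-38 and rpl-6, which encode eL20, eL15, eL38 and eL6. The region of rpl-18A at chrIV:4749881-4750196 had a pooled signal of 33.7, with 2.93 in replicate 2 and 30.3 in replicate 3. These replicates differed most among the thresholded large subunit genes, at rank 6566 in replicate 2 and rank 41 in replicate 3. The region of rpl-15 at chrIV:654744-655059 had a pooled signal of 32.9, with 13.1 in replicate 2 and 13.4 in replicate 3. eL38 is known from mouse for its need in the translation of Hox messenger RNAs. The region of rpl-38 at chrV:15511626-15511941 had a pooled signal of 25.0, with 7.23 in replicate 2 and 16.9 in replicate 3. The region of rpl-6 at chrIII:7207918-7208233 had a pooled signal of 23.4, with 3.99 in replicate 2 and 15.2 in replicate 3. rpl-38 was the single thresholded member on chromosome V.

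The small subunit genes with a thresholded summit are given by the place of their proteins, starting with those near the exit of the messenger RNA channel. rps-3A encodes eS1, and its region at chrIII:4475493-4475808 had a pooled signal of 35.7, with 17.2 in replicate 2 and 19.1 in replicate 3. rps-28 encodes eS28, and its region at chrIV:1659123-1659438 had a pooled signal of 33.3, with 6.73 in replicate 2 and 24.2 in replicate 3. rps-26 encodes eS26, and its region at chrI:14759366-14759681 had a pooled signal of 24.0, with 7.53 in replicate 2 and 19.6 in replicate 3. All 3 proteins lie by that channel exit, and rps-3A had the highest rank of any member in replicate 2, at 37. Its rank in replicate 3 was 166.

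Other genes with a thresholded summit encode proteins of the head of the small subunit. rps-19 encodes eS19, which is mutated in human Diamond-Blackfan anaemia, and its region at chrI:9625930-9626245 had a pooled signal of 27.8, with 10.2 in replicate 2 and 15.4 in replicate 3. rps-17 encodes eS17, mutated in the same disease, and its region at chrI:6220780-6221095 had a pooled signal of 24.0, with 6.85 in replicate 2 and 14.6 in replicate 3. rps-20 encodes uS10, and its region at chrI:14469123-14469438 had a pooled signal of 24.5, with 9.36 in replicate 2 and 14.3 in replicate 3. These 3 lie on chromosome I and had close scores in replicate 3. In replicate 2 rps-19 ranked 182, rps-20 ranked 255 and rps-17 ranked 732. rps-12 encodes eS12, and its region at chrIII:5678958-5679273 had a pooled signal of 23.6, with 12.3 in replicate 2 and 11.9 in replicate 3. rps-12 was the single thresholded member with the higher score in replicate 2. rps-15 encodes uS19, whose tail reaches the decoding centre, and its region at chrI:8816420-8816735 had a pooled signal of 23.1, with 5.62 in replicate 2 and 13.4 in replicate 3.

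The last of the small subunit genes with a thresholded summit was rps-11, which encodes uS17. Its region at chrIV:11602181-11602496 had a pooled signal of 23.9, with 2.70 in replicate 2 and 18.6 in replicate 3. Its rank was 7679 in replicate 2 and 181 in replicate 3, so that rps-11, like rpl-18A, stood high in replicate 3 alone. Both genes had a summit in each replicate. Their replicate 2 scores, 2.70 at rps-11 and 2.93 at rpl-18A, lay below the median of that relaxed list, 3.01.

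At the edge of the thresholded list, rps-15 was the last member inside, with a signal of 23.1 at rank 302, and rpl-37A the first outside, with 21.8 at rank 360. rpl-37A encodes eL43 and had 7.22 in replicate 2 and 14.0 in replicate 3. rps-15A had a pooled signal of 21.0 and rank 141 in replicate 3, and no region in the list of replicate 2. rps-21, which encodes eS21, had a pooled signal of 19.6, with rank 4459 in replicate 2 and rank 226 in replicate 3. The replicate 2 region of rps-21 was another one, with its summit at -753 bp, against -262 bp in the pooled list. The values of these 3 genes lay close below the threshold in the pooled list, and rps-15A and rps-21 ranked high in replicate 3 alone. rpl-26, which encodes uL24 beside the exit tunnel, had a pooled signal of 19.2, with rank 4350 in replicate 2 and 286 in replicate 3. rpl-10L encodes uL16, which lies between the catalytic centre and the factor-binding site, and had 18.6, with rank 187 in replicate 2 and 2351 in replicate 3. rpl-13, which encodes eL13, had 18.0, with rank 2293 in replicate 2 and 550 in replicate 3. Of the 6 strongest members below the threshold, rpl-10L was the single one with the better rank in replicate 2.

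At the weak end, every member had a region in at least 1 of the lists. rplp-1, an acidic stalk protein gene, and rpl-42 had none in the pooled list and none in replicate 2, with 3.65 and 3.61 in replicate 3. rpl-21 had none in the pooled list but had 4.70 in replicate 2 and 2.93 in replicate 3. rpl-41.1 had a region in the pooled list alone, with 3.56. All 4 are listed as large subunit genes. In replicate 3 rplp-1 ranked 13604 and rpl-42 ranked 13854 of 29326, and in the pooled list rpl-41.1 ranked 24101 of 30000.

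For 4 pairs of related copies the pooled signals were set beside those of the replicates. rpl-11.2 had a pooled signal of 12.4 and rpl-11.1 had 3.80. In replicate 3 rpl-11.2 had 12.2 and rpl-11.1 had 3.97, and in replicate 2 rpl-11.1 had no region. rpl-41.2 had 6.72 in the pooled list, against 3.56 for rpl-41.1, which had no region in either replicate. For the other 2 pairs the pooled and replicate scores did not give one order. rpl-37.1 and rpl-37.2 had 9.03 and 5.48 in the pooled list, but 4.78 and 4.73 in replicate 2 and 2.08 and 2.55 in replicate 3. rpl-23A.1 and rpl-23A.2 had 7.57 and 6.08 in the pooled list, but 2.34 and 2.67 in replicate 2 and 3.19 and 3.04 in replicate 3. The replicate scores against the pooled order belong to other regions. rpl-37.2 had its pooled summit at -491 bp and its replicate 3 summit 180 bp downstream of the 5′ end. rpl-23A.1 had its pooled summit at -897 bp and its replicate 2 summit 25 bp downstream. The scores of these pairs are single values without an error of their own. Reads from near-identical sequence could be split between copies. The windows compared lie mostly outside the coding sequence. The replicate 3 summit of rpl-37.2 and the replicate 2 summit of rpl-23A.1, however, lay inside the gene.

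The replicates listed different numbers of members. The relaxed list of replicate 2 held a region for 69 members (85.2%), against 21.2% of all protein-coding genes, and that of replicate 3 for 79 members (97.5%), against 39.9%. Both lists held 68 members (84.0%), against 13.2% of all protein-coding genes. rps-7 was listed in replicate 2 alone among the replicates, 11 members in replicate 3 alone, and rpl-41.1 in neither. The median rank of the members stood at 21.9% of the list in replicate 2, against 38.0% for the other genes, and at 6.53% of the list in replicate 3, against 36.4%. These lists differ in length, and the median ranks of the members were 2715 of 12414 in replicate 2 and 1914 of 29326 in replicate 3.

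Taking as many of the strongest regions from each replicate as the thresholded list holds gave 10 members in replicate 2 and 16 in replicate 3. The share over all protein-coding genes was 1.22% in replicate 2 and 1.09% in replicate 3. Of the 81 members 3 were in both of these sets, against 66 of 19890 other nuclear genes, and 23 were in either, against 345. Over the 68 members with a region in both replicates, Spearman's rho between the replicate scores was 0.26, and over the 2559 other nuclear genes it was 0.31. These coefficients are across genes, which are not independent replicates, and are given as descriptions. The strongest region was chosen in each list apart, and the summits of the replicates lay within 100 bp at 37 of the 68 members. Some of the paired scores thus belong to different regions. With this limit, the order of the members was poorly shared between replicates, while their position above the other genes appeared in each.

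**Figure D3:**
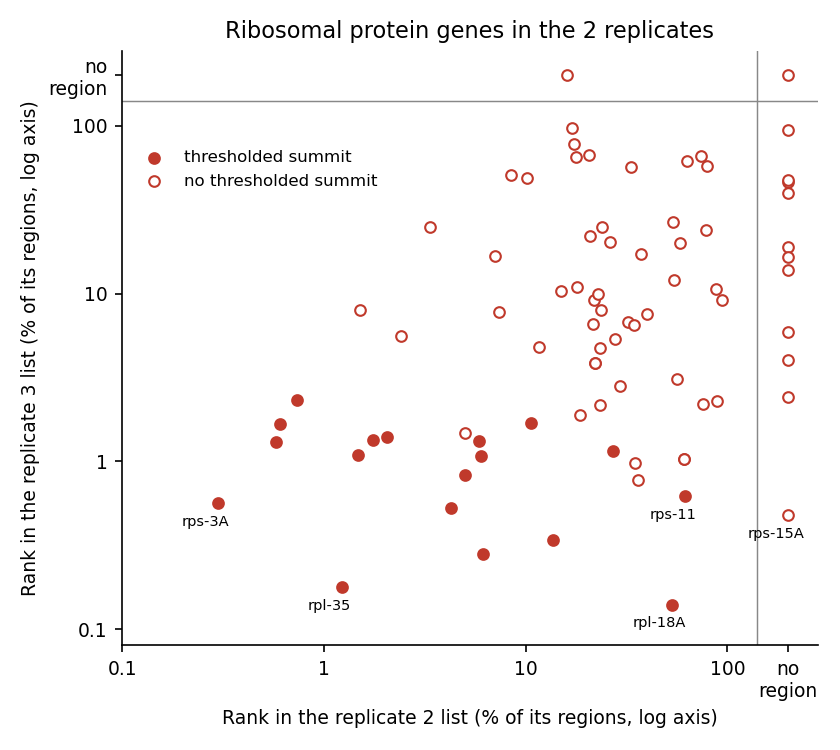
Rank of the strongest region of each ribosomal protein gene in the relaxed list of replicate 2 (x, % of its regions, log axis) and of replicate 3 (y, % of its regions, log axis), where a low value is a strong region, filled for thresholded members, and genes without a region set apart beyond the grey lines. rps-3A and rpl-35 were strong in both, whereas rpl-18A (rank 6566 and rank 41) and rps-11 (rank 7679 and rank 181) were strong in replicate 3.

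The summits of the replicates lay closer together at members than at other genes, though not at every member. At members with a region in both replicates the median distance between their summits was 94 bp, with 37 of 68 (54.4%) within 100 bp, against a median of 145 bp and 39.9% at other genes. At the 18 thresholded members the median distance was 32.5 bp, and 17 lay within 100 bp. The list was made from both replicates, so this closeness is not independent of how these 18 regions were selected.

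The summits lay upstream of the annotated 5′ ends, in a narrow band. The median position in the pooled list was -313 bp in members, with an interquartile range of -380 to -227 bp. In other nuclear protein-coding genes with a region the median was -304 bp, with an interquartile range of -596 to -107 bp. The band from -500 to -101 bp held 65 of 78 member summits (83.3%), against 43.9% of the others. A summit inside the gene was found at 3 members (3.85%), which were rpl-19, rps-9 and rps-24, against 13.2% of the others. Summits more than 500 bp upstream were found at 8 members (10.3%), against 31.8%.

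At thresholded members the median position was -297 bp and the range was -454 to -16 bp. The band from -500 to -101 bp held 17 of these 18, against 124 of 196 (63.3%) at other genes with a thresholded summit. The exception was rpl-12, with its summit at -16 bp. rpl-12 was also the exception in the bases before the 5′ end, shown above, and its coding sequence begins 91 bp after that end. rpl-35 had the most distant summit, at -454 bp, and rps-17 at -174 bp and rps-20 at -178 bp the nearest after rpl-12.

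**Figure D4:**
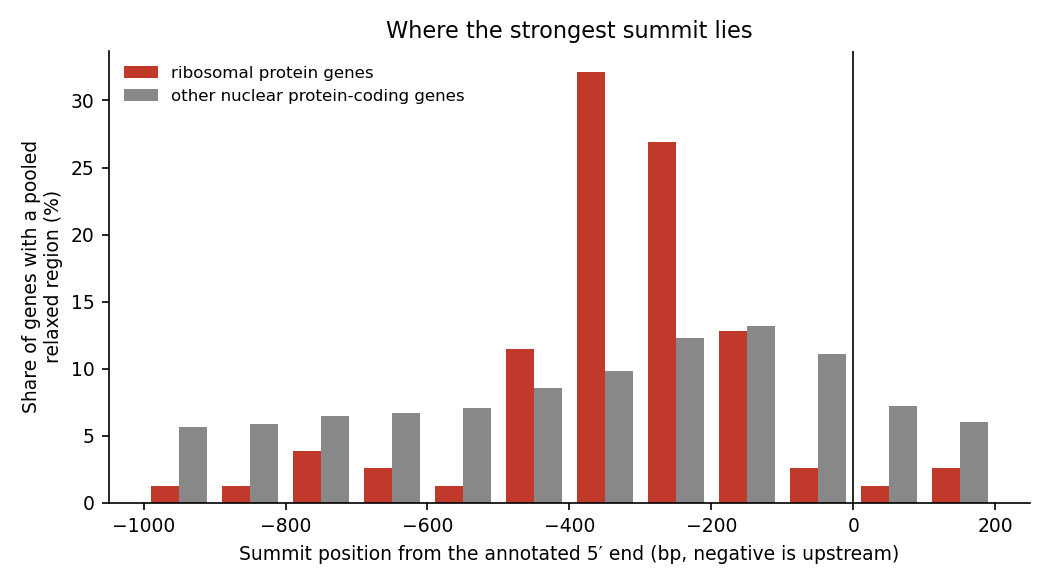
Position of the strongest summit in the pooled relaxed list relative to the annotated 5′ end (bp, negative is upstream), in bins of 100 bp, as a share of the ribosomal protein genes (n = 78) and of the other nuclear protein-coding genes (n = 8205) with a region. The bins from -400 to -200 bp held 32.1% and 26.9% of the ribosomal protein genes, against 9.85% and 12.3% of the other genes.

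Many of these regions can be assigned to a neighbour as well. A head-to-head neighbour, a protein-coding gene on the other strand whose 5′ end lies within 1000 bp, was annotated at 46 of 81 members (56.8%), against 17.5% of all protein-coding genes. Members with such a neighbour had a thresholded summit in 10 of 46 cases (21.7%), against 8 of 35 without (22.9%). Among other protein-coding genes with such a neighbour the share was 2.84% (98 of 3452). The median pooled signal of the members was 12.7 with a neighbour and 10.8 without. Over all protein-coding genes, 56.1% with such a neighbour had a pooled relaxed region, against 38.4% without.

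The 18 thresholded members had 18 separate regions, and 12 of these (66.7%) also lay in the window of another protein-coding gene, against 64 of 160 (40.0%) of all thresholded regions at 5′ ends. The member's 5′ end was the nearest one for 13 of the 18. Among the sharing genes were ifet-1, a translational repressor, at rps-3A, and lin-54, the DNA-binding subunit of the DREAM complex, at rpl-12. Others were ekl-4, a DMAP1 homologue, at rps-20, hsr-9 at rps-19, the kinetochore gene ska-3 at rps-12, swp-1 at rpl-23 and tmem-107 at rps-26. Y17G9B.5 shared with rpl-18A, Y41D4B.4 with rps-28, K11H12.8 with rpl-15, sac-2 with rpl-31 and F36A2.9 with rps-15. The regions of rpl-35, rpl-3, rpl-38, rps-17, rps-11 and rpl-6 lay in the window of the member alone.

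In the pooled list 49 of 76 member regions (64.5%) lay in the window of another protein-coding gene, against 17.8% of all regions at 5′ ends. The 5′ end of a member was the nearest one for 52 of the 76 (68.4%). The members shared a region with each other at 2 places, each between a large and a small subunit gene. rpl-24 and rps-10, whose 5′ ends lie 610 bp apart, shared a region with a signal of 17.1, at rank 7580 in replicate 2 and 302 in replicate 3. rpl-36 and rps-14, whose 5′ ends lie 663 bp apart, shared a region with a signal of 10.7, at rank 2734 in replicate 2 and 1124 in replicate 3. The replicate 2 summit lay elsewhere, at -127 bp from rps-14, against -315 bp in the pooled list. In both pairs the shared summit lay between the genes and upstream of each. The region of rpl-37A, just below the threshold, was shared with bop-1, a ribosome biogenesis gene that was nearer to the summit, at -180 bp, than rpl-37A at -741 bp.

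The end of another gene on the same strand lay within 500 bp upstream of 8 members (9.88%), against 18.1% of all protein-coding genes. 1 of these 8, rps-17, had a thresholded summit. rps-16 lies 112 bp downstream of fib-1, which encodes the nucleolar methyltransferase fibrillarin, and had its summit at -600 bp with a signal of 12.3. rplp-1 lies 106 bp downstream of rpl-27A and had no pooled region, whereas rpl-27A had a signal of 10.1 at -293 bp.

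snoRNA genes lay inside 15 of the members (18.5%), against 0.946% of all protein-coding genes. Of these 15 members 3 had a thresholded summit, with a median pooled signal of 13.2, against 15 of the 66 others, with 11.4. Among other protein-coding genes with a snoRNA gene inside, 9 of 174 (5.17%) had a thresholded summit. A thresholded summit lay within 500 bp of a snoRNA gene at rps-26, 112 bp from F39B2.14, and at rps-12, 262 bp from F54E7.10. Without summits near short noncoding RNA genes 16 members kept a thresholded summit, against 0.831% of all protein-coding genes.

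By chromosome, thresholded summits were found at 6 of 25 members on chromosome I, against 1.58% of the other genes there. They were found at 6 of 18 on III, against 1.91%, at 5 of 18 on IV, against 0.919%, and at 1 of 7 on V, against 0.441%. None was found at the 11 members on chromosome II, against 0.902%, and the median pooled signal of these members was 14.3. The X chromosome held 2 members (2.47%), against 13.7% of all protein-coding genes. These were rpl-11.2 with 12.4 and rpl-23A.1 with 7.57, and neither had a thresholded summit, against 0.660% of the other genes on X.

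The words marked in the printed windows were chosen from the member windows themselves, so their shares there are descriptions. GGTCTC or GAGACC was found in 22 of 76 member summit windows (28.9%), against 316 of 7015 windows (4.50%) at other summits near 5′ ends. ACCGTA or TACGGT was found in 21 of 76 (27.6%), against 4.15%. At least 1 of these words was in 33 of 76 member windows (43.4%), against 7.95%, and in 11 of 18 thresholded member windows, against 23.5% of other thresholded windows. CCTAAA or TTTAGG was found in 16 of 76 (21.1%), against 4.29%. The word GCGAGA was also frequent in these windows and overlaps GAGACC, as do the frequent words CGAGAC and, at its other end, AGACCC.

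The word GGTCTC had an orientation relative to the gene. In the 500 bases upstream of the 5′ end GGTCTC on the strand of the gene was found at 31 of 81 members (38.3%), against 7.01% of other nuclear genes. Its reverse complement GAGACC was found at 6 members (7.41%), against 6.59%. The GGTCTC words lay at a median of -275 bp in members, with an interquartile range of -334 to -257 bp. ACCGTA was found on the strand of the gene at 26 members (32.1%), against 7.54%, and TACGGT at 12 (14.8%), against 7.02%. CCTAAA was found at 38 members (46.9%), against 12.7%, and lay closer to the gene, at a median of -192 bp. TTTAGG was found at 23 members (28.4%), against 10.3%. The words were chosen from member summit windows, most of which lie in this stretch, so these shares too are descriptions. GGTCTC lay within 100 bp of the pooled summit at 23 of the 30 members that had both.

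The median signal of members with and without a word differed in direction between words. Members with GGTCTC in the 500 bases upstream had a median pooled signal of 11.0, and members without it 12.4. For TACGGT the medians were 17.8 with and 11.0 without, and for ACCGTA they were 11.4 with and 12.3 without. For CCTAAA they were 11.4 with and 12.3 without, and for TTTAGG 10.1 with and 12.3 without. Member summit windows with GGTCTC or ACCGTA on either strand had a median signal of 16.6 (33 windows), and windows with neither had 10.2 (43 windows). GGTCTC was found at 39.2% of large and 36.7% of small subunit genes. ACCGTA was found at 37.3% of large and 23.3% of small subunit genes, CCTAAA at 52.9% and 36.7%, and TTTAGG at 21.6% and 40.0%. A match describes these letters in these windows and does not mark a site of LSY-27.

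A further 8 motifs were not taken from these windows, and each was found in at most 10.5% of the member windows. GAGACG or CGTCTC was in 8 of 76 member windows (10.5%), against 5.39%, and ACGCAG or CTGCGT in 7 of 76 (9.21%), against 5.30%. These are overlapping parts of a frequent worm promoter element. GAGAGA or TCTCTC was in 9.21%, against 9.42%, and the TATA box TATAAA or TTTATA in 9.21%, against 11.7%. The GC box CCGCCC or GGGCGG was in 3.95%, against 3.01%. The E box CACGTG was in 1.32%, against 1.95%, and the B box core GTTCGA or TCGAAC in 1.32%, against 4.12%. TTTCAG or CTGAAA was in 7.89%, against 17.3%.

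Base composition is given beside these counts. The median GC content of the summit windows was 44.1% at members, against 36.6% at other summits near 5′ ends. In the thresholded list the median was the same, and the interquartile range was 42.1 to 50.2% at members and 43.3 to 53.5% at others. The stretch from 250 bases before to 50 after the 5′ end had 33.3% GC at members, against 34.3% over all genes. Its part in the word counts was not tested.

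Other genes of the ribosome were set beside the members. Cytosolic ribosomal protein genes had a thresholded summit at 22.2%, against 1 of 71 mitochondrial ribosomal protein genes (1.41%). That gene was mrpl-23, whose summit lay at -979 bp with a signal of 34.6. A pooled region was found at 96.3% of the cytosolic genes with a median signal of 11.8, against 54 of 71 (76.1%) of the mitochondrial genes with a median of 6.95. Ribosome biogenesis genes had a thresholded summit at 2 of 34 (5.88%). These were larp-1, which encodes a protein that binds ribosomal protein messenger RNAs in mammals, with 37.1 at -695 bp, and pro-1, a pre-ribosomal RNA processing gene, with 31.5 at -158 bp. The members' share and median of 96.3% and 11.8 in the pooled list stood beside 30 of 34 (88.2%) and 10.9 in the biogenesis genes. Genes for ribosomal components named otherwise lay below the threshold, with pooled signals of 15.5 at ubq-2, a ubiquitin fusion, and 11.6 at rack-1, the scaffold protein of the small subunit. 3 further genes of this kind, added after their values were seen, had 17.5 at rplp-2.1, 9.99 at fau-1 and 5.17 at rpsa-1. The region of fau-1 is also that of the member rpl-39, its head-to-head neighbour, and is not a separate value.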

How the data were processed

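LSY-27-GFP ChIP-seq was measured in 2 biological replicates of whole young adult hermaphrodites, which form 1 group. The authors deposited lists of regions on builds ce10 and ce11, and the ce11 lists were used. In these lists the authors gave each region a signal score, a -log10 q-value and a summit position. Per the deposited descriptions, the relaxed lists were called on each replicate or on both together against a control, and the thresholded list was made from them by irreproducible discovery rate. The aligner, the caller, the control library, the depth and the scaling of signal are not given in the sources used here. The deposited -log10 q-values were the same for all thresholded regions and were not used to rank.

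Here the strongest summit from 1000 bp upstream to 200 bp downstream of each RefSeq 5′ end was taken by signal, with Python 3.11.15, numpy 2.4.6, pandas 2.3.3 and scipy 1.17.1. The assignment was tested on simulated data. rla-0, rla-1 and rla-2 were matched through WormBase identifiers of the Ensembl annotation. Sequences were read from the RefSeq genome of WBcel235. Named genes were all members with a thresholded summit, the 6 strongest without one, those at the edge of the threshold, and genes of the other lists with a thresholded summit. Members and lists were chosen with earlier results of these data known, and no test was run over them. Exact intervals are Clopper-Pearson at 95% and cover counting error only. Summit windows other than those printed, among them windows that touch exons, are not reported here as sequence.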

Additional observations from a re-analysis of the deposited data

How the results depend on the processing

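Of the values recomputed under other settings, 44 stayed within 1.5 times (counts) or within the spread between replicates, 19 moved and 0 reversed. Most of these values are counts or scores, which cannot change sign. The spread came from the settings that leave out 1 replicate, which are themselves among those labelled. With the window narrowed to 200 bp upstream, the members with a thresholded summit were 4 in place of 18 (1 of the large and 3 of the small subunit, in place of 9 each), their median position was -176 bp in place of -297 bp, 1 summit was shared in place of 12, and 26 members in place of 78 had a pooled region, with a median signal of 7.18 in place of 11.8. This window leaves out the band in which most member summits lay. Among the 171 strongest regions of the thresholded list there were 8 members (5 large, 3 small), with a median position of -309 bp and 6 shared summits. With each summit given to the nearest 5′ end, 13 members had a thresholded summit. Their median position was -326 bp and 0 summits were shared, by construction. Under this rule 58 members in place of 78 had a pooled region, with a median signal of 10.5 in place of 11.8.

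Leaving out 1 replicate, by taking the strongest regions of the other, gave 10 to 16 members (6 to 8 large, 4 to 8 small), with 10 when replicate 3 was left out. The median position was then -300 to -298 bp, and 9 summits were shared in each case. The relaxed lists of 1 replicate held 69 to 79 members, with median signals of 4.35 to 8.10 on their own scales. Leaving out rpl-42, chosen after seeing the data, kept the count of 78 and the median of 11.8. No paired analysis was possible because there is 1 group and no contrast between groups. Depth is unknown, so that a gene without a region cannot be told from one below the limit of its list.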
